A study of Prunus persica with 9 samples.

Results

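The 40 pre_miRNA genes described here are the most abundant ones of peach leaf outside a list of 33 genes named as differentially expressed miRNAs (DEMs) from these same libraries. They were chosen on the mean normalized count of the 3 control libraries, after the 33 DEMs had been set aside, from the 177 other genes among the 210 pre_miRNA genes of the deposited table. All 40 passed the minimum mean of 5 normalized counts that was set for testing. The tissue was leaf blades of juvenile Prunus persica var. Big Top plants, which were produced in vitro and grown in pots in a glasshouse. Control plants (t0, called mock in the sample labels and untreated in the methods) were compared with plants sprayed with 1 µM PpPep2, a peach plant elicitor peptide (Pep), whose leaves were taken 1 h or 24 h later, with 3 libraries in each of the 3 conditions. Each library pooled the leaves of several plants, and all controls were taken at t0, so that an effect of the peptide cannot be told apart from one of time or handling.

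Plant miRNA genes are transcribed into hairpin precursors, from which the enzyme DCL1 cuts a short duplex. One strand of the duplex, the mature miRNA, is loaded into an ARGONAUTE protein and guides it to mRNAs of matching sequence, which are then cleaved or translated less. Conserved miRNA families often come as several gene copies with the same or nearly the same mature sequence, and a few such families usually supply most miRNA reads of a leaf. None of the 40 genes has a miRNA name or a sequence in the sources used here, and 0 of the 210 identifiers matched the reference gene table. The genes are therefore given by their Ensembl identifiers, without family, target or position. Reads shared between copies of a family may be divided between identifiers, and the values of single identifiers depend on that division.

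The values are normalized counts, in which a library's reads had been divided by a factor for that library. In each library the low values were whole multiples of a fixed step, the worth of 1 read, between 0.488 and 2.84 normalized counts. Totals divided by the step gave 115519 reads on pre_miRNA genes in replicate 2 of t0, the shallowest library, and 546710 in replicate 3 of t0, the deepest. Depths and shares of a library given here refer to the reads on these genes only, not to all reads sequenced. Replicate 1 at 1 h stood apart from its group in several abundant genes. Its total of 274956 normalized counts lay within the t0 range of 266907 to 328582, whereas the other 1 h libraries had 367210 and 368510. It was closer to the t0 mean than to the mean of the other 1 h libraries for 23 of the 40 genes, against 14 for replicate 2 and 18 for replicate 3. For replicates 2 and 3 that mean includes replicate 1. Within the t0 range lay 21 of the 40 genes in replicate 1, 14 in replicate 2 and 21 in replicate 3, so this count did not set replicate 1 apart. The values that it moved most are also given without it. The table holds pre_miRNA genes only, so the leaf tissue could not be checked against marker genes, and in such bulk samples fewer cells of a type and less RNA per cell cannot be told apart.

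The 40 genes held nearly all miRNA reads outside the DEM list. Their summed share of the normalized counts of a library was between 85.0% and 88.4%, and the means of the t0, 1 h and 24 h libraries were 86.0% ± 0.869, 87.3% ± 0.625 and 87.0% ± 1.54 (SD, n = 3). The 33 DEMs took 11.0% to 14.3% of a library, and the remaining 137 genes together took 0.463% to 0.684%. Within the 40, the reads were in few genes, as the 7 highest held 66.3% ± 2.21 (SD, n = 3) of the normalized counts at t0 and the 20 lowest held 2.04% ± 0.226 (SD, n = 3). At t0 this share follows from the choice of the genes, and the PpPep2 libraries, which the ranking did not use, gave nearly the same share.

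**Figure D1:**
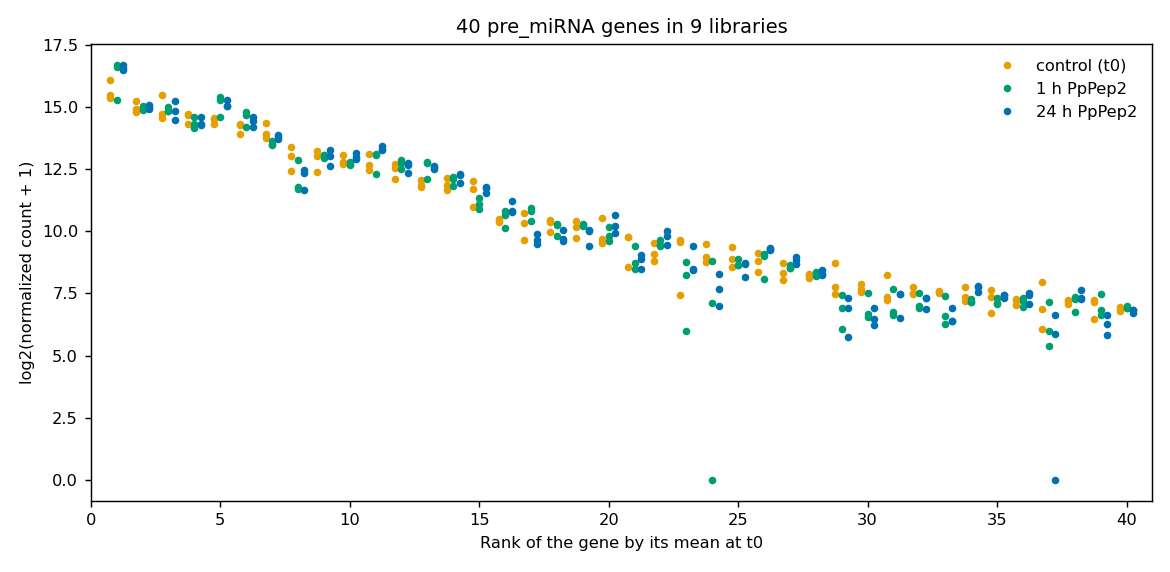
Each point is the log2(normalized count + 1) of 1 gene in 1 library, for the 40 genes in the order of their mean at t0 (horizontal axis) and the 3 conditions in colour. The levels run from 51684 normalized counts on average at t0 for the first gene to 116 for the last, and the 2 points at 0 are ENSRNA049996337 in replicate 3 at 1 h and ENSRNA049996092 in replicate 2 at 24 h.

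The order of the levels at t0 was clear only at some steps. Among the 40 genes, 34 of the 39 pairs of neighbours in this order had overlapping ranges of their t0 libraries and 5 did not. The steps without overlap were those below ENSRNA049996936, below ENSRNA049997141, below ENSRNA049997126, below the gene in place 12 and below ENSRNA049996813 in place 15. ENSRNA049996936 was the highest of all 210 genes in each of the 9 libraries, and the first 7 genes took places 1 to 8 of the 210, in changing order. Lower down, ENSRNA049996337 was found between places 35 and 158 of the 210 and ENSRNA049996092 between places 47 and 151. The mean dropped 2.03-fold below ENSRNA049997126 and 2.27-fold below ENSRNA049996813, which were the 2 largest of these 5 steps. At the lower end, ENSRNA049996366 had 127 ± 33.8 (SD, n = 3) and ENSRNA049996584 had 116 ± 5.90 (SD, n = 3) normalized counts at t0, as the genes in places 39 and 40. Just outside were ENSRNA049996627 with 107 ± 25.9 (SD, n = 3) and ENSRNA049996743 with 68.7 ± 4.07 (SD, n = 3).

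The first gene, ENSRNA049996936, dominated every library. Its normalized counts were 45012, 68724 and 41316 in the t0 libraries, 39986, 105560 and 98761 at 1 h and 91006, 104503 and 97025 at 24 h. All 24 h libraries and 2 of the 1 h libraries lay above all t0 libraries, whereas replicate 1 at 1 h lay below them. As a share of the library, the means were 17.1% ± 3.27 for t0, 23.4% ± 7.70 for 1 h and 26.8% ± 1.74 for 24 h (SD, n = 3 each). Without replicate 1 the mean share at 1 h was 27.8%. The exact (Clopper-Pearson) 95% interval of a share was at most 0.238 percentage points to either side, which covers counting error only.

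Against t0, limma gave ENSRNA049996936 a log2 fold change (log2FC, on the scale of log2(normalized count + 1)) of 0.57 at 1 h and 0.95 at 24 h, each with a standard error (SE) of 0.36. Without replicate 1 the 1 h value was 1.02. These contrasts share the t0 libraries that chose the gene and also served to choose the 33 DEMs that were set aside, so they are given as a description, with no test. The estimate of the change between the time points did not use t0, but its SE and p in limma rest on the spread in all 9 libraries. The DEMs that were set aside had been called with the 1 h and 24 h libraries too. From 1 h to 24 h the log2FC was 0.38 with an SE of 0.36, and limma's p, adjusted over the 135 genes tested by the Benjamini-Hochberg (BH) method, was 0.578. The share was 3.48 percentage points higher at 24 h than at 1 h on average (two-sided exact permutation test, p = 0.8, where the smallest p that 3 libraries against 3 allow is 0.1). Without replicate 1 at 1 h it was 0.932 points lower at 24 h (-0.932), so the sign of this difference rested on 1 library.

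**Figure D2:**
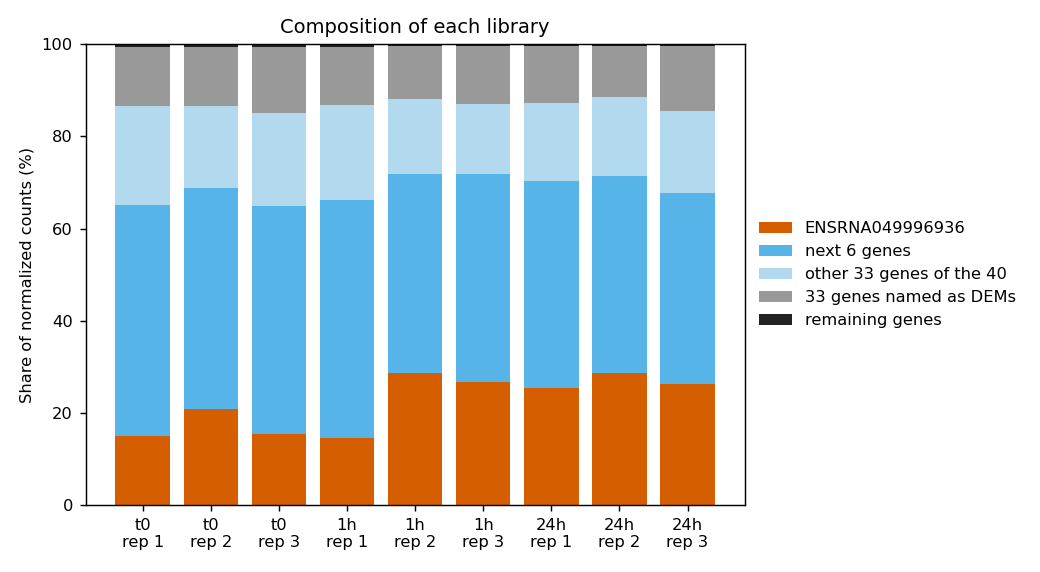
Stacked bars give the share of the normalized counts (vertical axis, %) in each of the 9 libraries for ENSRNA049996936, the next 6 genes, the other 33 of the 40, the 33 DEMs and the remaining 137 genes. The bar of ENSRNA049996936 is 14.5% to 20.9% in the t0 libraries and replicate 1 at 1 h and 25.4% to 28.8% in the other 5 libraries.

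The composition of the libraries moved with this gene. The next 6 genes together took 49.1% ± 1.12, 46.5% ± 4.57 and 42.9% ± 1.81 (SD, n = 3) of the t0, 1 h and 24 h libraries, and every 24 h library was below every t0 library. Without replicate 1 the mean at 1 h was 44.0%. When ENSRNA049996936 was left out of the total, the same 6 genes took 59.3% ± 1.12, 60.7% ± 0.563 and 58.7% ± 2.27 (SD, n = 3), and the ranges overlapped. In the same way, the other 39 genes of the 40 together took 68.9% of a library at t0 and 60.2% at 24 h, but 83.2% and 82.3% of what was left without ENSRNA049996936. The shares of a library have a fixed sum, so a larger share of 1 gene leaves a smaller summed share for the others. The smaller difference with the dominant gene out of the total follows largely from this arithmetic. In normalized counts the other 39 genes were not lower, with 205155 ± 16892 at t0 and 218539 ± 2895 at 24 h (SD, n = 3).

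The total of the normalized counts went from 298291 ± 30852 in the t0 libraries over 336892 ± 53642 to 363235 ± 4598 in the 24 h libraries (SD, n = 3), with all 24 h totals above all t0 totals. Without replicate 1 the 1 h mean was 367860, which is above the 24 h mean. Of the difference between 24 h and t0, 64945 normalized counts, 70.6% was in ENSRNA049996936, 20.6% in the other 39 genes and 8.67% in the 33 DEMs. Without ENSRNA049996936 the total at 24 h was 1.08 times that at t0, against 1.22 times with it. The deposited scaling does not equalise totals. The median ratio of a library's values to the geometric mean over libraries was between 0.985 and 1.06 over the 123 genes above 0 in every library. It was between 0.991 and 1.06 when ENSRNA049996936 was left out. A median over so many genes can shift little when 1 gene is left out, whatever its level. These values therefore do not measure the effect of the dominant gene on the scaling.

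**Figure D3:**
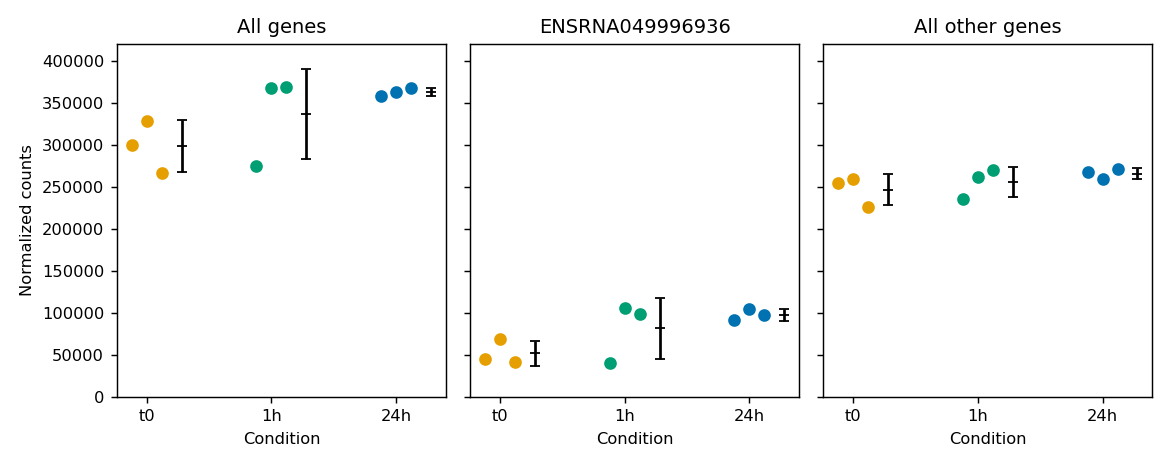
Points are the normalized counts of each library (vertical axis) by condition, for all genes, for ENSRNA049996936 and for all other genes, with the mean and the SD (bars, n = 3). The 24 h totals lie between 358637 and 367834 and all t0 totals below them, and for all other genes the ranges of t0 and 24 h overlap.

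The 6 genes after ENSRNA049996936 differed in how steady they were. ENSRNA049997204 had 38500, 28071 and 30917 normalized counts at t0, 32406, 30202 and 33747 at 1 h and 32283, 34377 and 31200 at 24 h. The groups overlapped throughout, and its coefficient of variation (CV, SD over mean) over the 9 libraries was 9.14%. For ENSRNA050003608 the values were 26521, 45072 and 23869 at t0, 29359, 29142 and 32490 at 1 h and 38628, 29048 and 22598 at 24 h. Here the spread was within the conditions, with replicate 2 highest at t0 and replicate 1 highest at 24 h. ENSRNA049996520 had 27112, 20525 and 26241 at t0, 24397, 20171 and 18129 at 1 h and 24541, 20475 and 19735 at 24 h, with overlapping groups.

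ENSRNA049997141 resembled the dominant gene. It had 24221, 23188 and 20298 normalized counts at t0, 24409, 39019 and 43331 at 1 h and 33444, 33851 and 39584 at 24 h. All PpPep2 libraries lay above all t0 libraries, but replicate 1 at 1 h only just. For ENSRNA049997046 the values were 19885, 20022 and 15227 at t0, 18868, 28191 and 26290 at 1 h and 18591, 22070 and 24399 at 24 h, with overlapping groups. ENSRNA049997126 went the other way at 1 h, with 13868, 20596 and 15257 at t0, 12728, 11150 and 11599 at 1 h and 13395, 15031 and 14276 at 24 h. Its 1 h libraries were below all others, and from 1 h to 24 h its log2FC was 0.27 (SE 0.17, BH-adjusted p in limma 0.510).

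By Pearson correlation of log2(normalized count + 1) over the 9 libraries, the genes most like ENSRNA049996936 were ENSRNA049996257 with 0.92, ENSRNA049997141 with 0.88 and ENSRNA049996304 with 0.85. The most opposite ones were ENSRNA050004180 with -0.799 and ENSRNA049996520 with -0.795. This is a description only, since the points share their library, its scaling and the 3 conditions. ENSRNA049996257 had 3700, 4244 and 3543 normalized counts at t0, 4373, 7000 and 6844 at 1 h and 5783, 6087 and 6344 at 24 h, so that all PpPep2 libraries were above t0 and replicate 1 at 1 h was again the lowest of them. ENSRNA049996304 had 331, 549 and 445 at t0, 272, 537 and 514 at 1 h and 613, 646 and 620 at 24 h. Here replicate 1 at 1 h was the lowest of all 9 libraries and the 24 h libraries were the 3 highest.

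Over the 9 libraries the CV of the 40 genes had a median of 23.2%, from 5.81% to 78.4%. It was under 15% for 6 genes and over 50% for 4. For 20 of the 40 genes the highest library was less than 2 times the lowest. The median CV was 55.7% over the 33 DEMs, which had been selected for their differences, and 38.2% over the 62 other genes tested. The abundance of the 40 and the removal of the DEMs both bear on this contrast, and it was not tested. Taken within a condition, the median CV of the 40 was 23.0% among the t0 libraries, 19.3% among the 1 h libraries and 15.6% among the 24 h libraries. In the same order it was 27.3%, 30.5% and 31.9% over the 62 other genes and 19.5%, 35.4% and 22.3% over the DEMs. A fall after PpPep2 was thus not shared by the other genes. The t0 libraries also chose the 40, and these differences were not tested.

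The steadiest genes were spread over the whole order. After ENSRNA049996584 with a CV of 5.81%, these were ENSRNA049996390 with 7.01%, ENSRNA049997204 with 9.14% and ENSRNA049996899 with 12.1%. ENSRNA049996584 had 123, 111 and 115 normalized counts at t0, 120, 125 and 118 at 1 h and 103, 112 and 112 at 24 h. Counting error alone gives a CV of 11.2% at its level and 6.92% at that of ENSRNA049996390. Their spread was therefore close to or below what the depth can resolve, whereas ENSRNA049997204, with a counting error of 0.670%, was measured more closely.

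The 4 least steady genes were ENSRNA049996092 with a CV of 78.4%, ENSRNA049996337 with 70.8%, ENSRNA049996084 with 66.2% and ENSRNA049996662 with 59.5%. ENSRNA049996337 had 723, 435 and 492 normalized counts at t0, 449, 136 and 0 at 1 h and 125, 204 and 313 at 24 h. A value of 0 in replicate 3 at 1 h allows up to 4.91 normalized counts at that depth (3 reads, counting error only), so this library was far below the other 1 h libraries. All 24 h libraries of the gene were below all t0 libraries. ENSRNA049996092 had 115, 65.4 and 250.0 at t0, 40.6, 61.9 and 141 at 1 h and 98.4, 0 and 57.9 at 24 h, where the 0 allows up to 7.84 normalized counts.

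ENSRNA049996084 had 213, 427 and 175 normalized counts at t0, 120, 173 and 65.5 at 1 h and 159, 52.3 and 118 at 24 h. All PpPep2 libraries were below all t0 libraries, although the highest t0 library was 2.44 times the lowest. ENSRNA049996662 had 170, 748 and 806 at t0, 63.3, 305 and 436 at 1 h and 343, 356 and 671 at 24 h, so that replicate 1 was the lowest in each of the 3 groups and the groups overlapped.

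**Figure D4:**
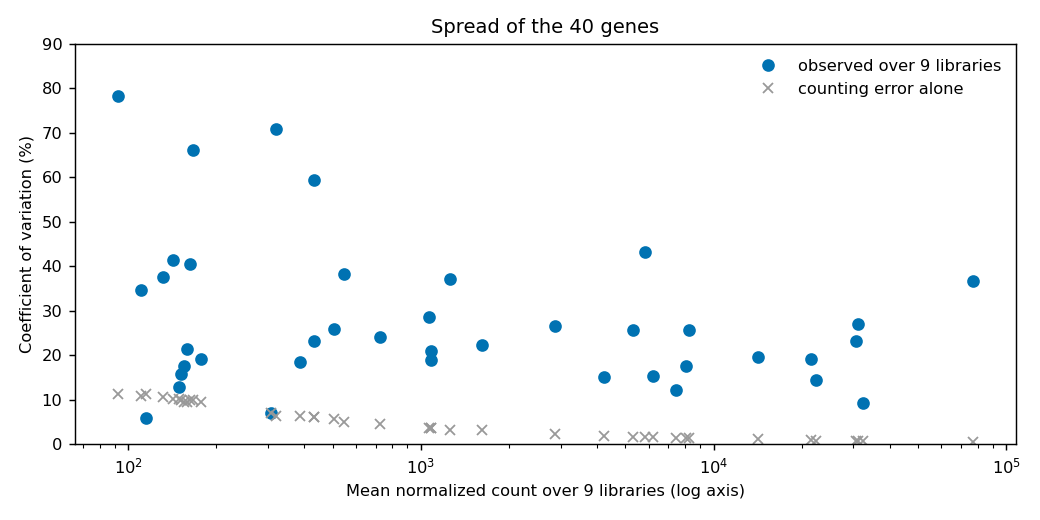
For each of the 40 genes, the CV over the 9 libraries (vertical axis, %) is plotted against the mean normalized count (horizontal log axis), with the CV that counting error alone would give (crosses). All but ENSRNA049996584 lie above their cross, and the counting error falls from 11.2% at the low end to 0.460% for ENSRNA049996936.

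Between 1 h and 24 h after PpPep2, no gene of the 40 passed. The limma test called 0 of the 40 genes at a BH-adjusted p under 0.05, and the share called among the 135 genes tested was likewise 0.0%. At an unadjusted p under 0.05 there were 3 of the 40 genes, beside 13.3% of all genes tested. Leaving out replicate 1 at 1 h also gave 0 of the 40, beside 1 of all genes tested. The smallest adjusted p among the 40 was 0.307. The median log2FC of the 40 was 0.05 and that of all genes tested 0.03. For 31 of the 40 (77.5%) it was under 0.5 in size, against 66.7% of all genes tested. The SE had a median of 0.24 over the 40 and ran from 0.14 to 1.86, so that differences of this size could be missed. The removal of the 33 DEMs, which were called from these libraries too, also took variable genes out of the list.

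The groups of 1 h and 24 h did not overlap for 12 of the 40 genes, 8 of them higher and 4 lower at 24 h. This is 30.0% of the 40, where the background among all genes tested was 21.5% (11.9% higher and 9.63% lower). Without replicate 1 at 1 h it was 14 of the 40, beside 33.3% of all genes tested. Groups with fewer libraries are more easily without overlap, so this rise is not an effect of that replicate alone. The smallest p was that of ENSRNA049996993, with 1958, 1771 and 1348 normalized counts at 1 h and 722, 957 and 793 at 24 h. Every 24 h library was below every 1 h library, with a log2FC of -1.03 (SE 0.29, BH-adjusted p in limma 0.307). Its t0 libraries, with 1677, 799 and 1283, lay on both sides. ENSRNA049996366 had 176, 99.0 and 113 at 1 h and 55.8, 75.8 and 98.1 at 24 h, which gave a log2FC of -0.74 (SE 0.32, BH-adjusted p in limma 0.357).

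ENSRNA049997210 had 1252, 1200 and 1179 normalized counts at 1 h, the narrowest triplet of the gene, and 684, 1028 and 1068 at 24 h, which gave a log2FC of -0.41 (SE 0.24), or -0.21 without replicate 1 at 24 h. In the other direction, ENSRNA049996813 had 2561, 2183 and 1876 at 1 h and 2996, 3477 and 3393 at 24 h, which gave a log2FC of 0.58 (SE 0.26), while its t0 libraries ran from 1988 to 4102 and overlapped with both groups. For ENSRNA049996304 it was 0.57 (SE 0.30), with all 24 h libraries above all 1 h libraries, and 0.25 without replicate 1 at 1 h. ENSRNA049996899 had 6485, 6613 and 7014 at 1 h and 8949, 8029 and 7645 at 24 h, again without overlap, and a log2FC of 0.29 (SE 0.15). The larger values of 2.35 for ENSRNA049996337 (SE 1.86), 1.09 for ENSRNA049996662 (SE 0.80) and -1.995 for ENSRNA049996092 (SE 1.52) belonged to genes whose groups overlapped, and each moved with single libraries. Without the library at 0 the values were -0.31 for ENSRNA049996337 and 0.090 for ENSRNA049996092, and without replicate 1 at 1 h they were 4.10 for ENSRNA049996337 and 0.25 for ENSRNA049996662. ENSRNA049996662 had 1.63 without replicate 3 at 1 h, and ENSRNA049996092 had -3.23 without replicate 1 at 24 h. None of these passed in limma after BH adjustment.

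The 20 of the 40 genes outside the rule for named genes had means at t0 from 143 to 8160 normalized counts and CVs from 12.8% to 43.2%, with a median of 21.8%. From 1 h to 24 h their log2FC ran from -0.38 to 0.51, and 4 of them were without overlap, all higher at 24 h. Among all genes tested, 11.9% were higher and 9.63% lower without overlap. The naming rule had already taken the 4 largest changes in each direction, and the 4 members lower without overlap are among the named genes. The range and the direction thus follow in part from the rule. By the order of the group means, 8 of the 40 genes went up from t0 over 1 h to 24 h and 9 went down over both steps. In 9 the mean was lowest at 1 h and highest at 24 h, in 6 lowest at 1 h and highest at t0, in 4 lowest at 24 h and highest at 1 h and in 4 lowest at t0 and highest at 1 h. No order of the means thus held for most of the 40. Group means always fall into some order, also where the groups overlap, and the same counts were not made for all genes tested. The groups overlapped for 28 of the 40 genes at 24 h against 1 h, for 28 at 24 h against t0 and for 34 at 1 h against t0. No course over time is therefore read from these orders.

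**Figure D5:**
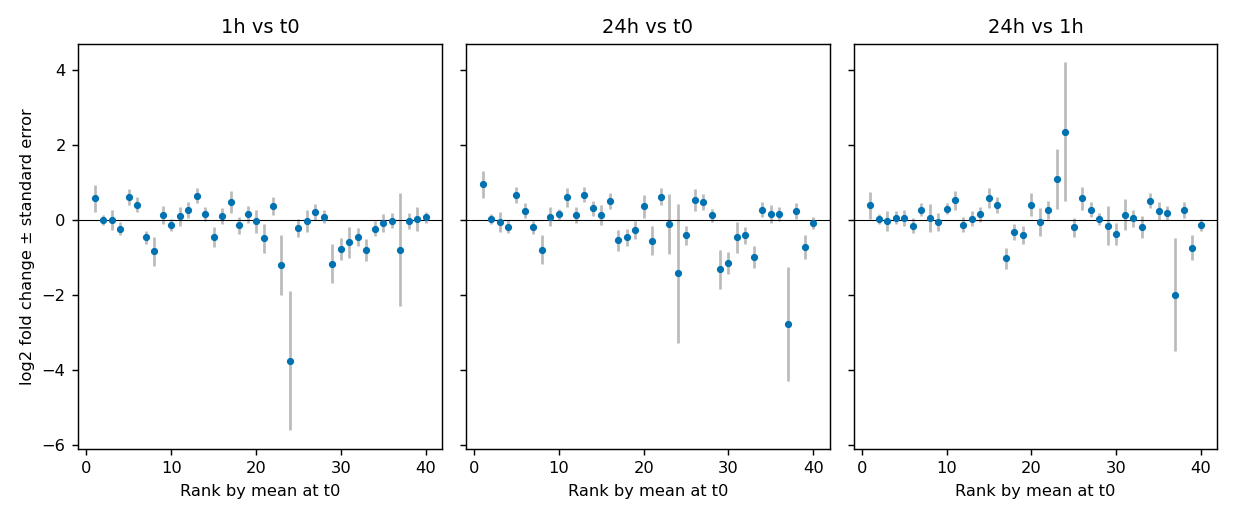
Log2 fold changes in limma (vertical axis, points) with their standard errors (bars) are plotted for the 40 genes in the order of their mean at t0 (horizontal axis), for 1 h and 24 h against t0 and for 24 h against 1 h. Most points lie within 0.5 of 0, namely 29 of 40 at 1 h and 24 of 40 at 24 h against t0, and 31 of 40 between the time points.

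The comparisons with t0 are descriptions, because the ranking used the t0 libraries and the removed DEMs had been called in these contrasts. At 24 h limma called 1 of the 40 genes, which was lower, where the share called among all genes tested was 14.1% (5.19% higher and 8.89% lower). At 1 h it called 0 of the 40, where the share was 0.741%. By the paper's account all but 1 of the 33 DEMs were regulated at 24 h. Limma called 19 of the 135 genes tested there, and not all of these were DEMs. At 1 h limma also called fewer genes than the paper did. The limma fit thus missed part of the DEMs, and few calls among the 40 cannot be read as a sign of steady levels. At an unadjusted p under 0.05 there were 9 of the 40 at 24 h, with 32.6% of all genes, and 5 at 1 h, with 12.6% of all genes. The median log2FC of the 40 was 0.05 at 24 h and -0.03 at 1 h, beside -0.01 and -0.03 over all genes tested. At 24 h the groups did not overlap for 12 of the 40 (7 higher and 5 lower), where the background was 41.5% (27 of the 135 genes higher and 29 lower). At 1 h this held for 6 of the 40 (2 higher and 4 lower), where the background was 21.5% (8.89% higher and 12.6% lower). Without replicate 1 at 1 h it was 15 of the 40, beside 46.7% of all genes tested, where the smaller group also makes overlap less likely. Nothing is read from these shares, since the genes with the clearest differences had been taken out.

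The gene called at 24 h was ENSRNA050004180, which falls outside the rule for named genes and was singled out after its values were seen. It had 185, 233 and 204 normalized counts at t0, 182, 93.5 and 102 at 1 h and 86.9, 120 and 74.2 at 24 h. All PpPep2 libraries were below all t0 libraries, replicate 1 at 1 h only just. Its log2FC against t0 was -1.16 at 24 h and -0.78 at 1 h, with an SE of 0.30. The gene was not among the DEMs that the authors called. Its limma call is a description and not a test, because the t0 libraries had served to rank the genes. The DEMs called by the authors in this contrast had also been set aside. The limma call was lost without each t0 library and without replicate 1 or 3 at 24 h. It was also lost with no trend, with the replicate block and with the same upper quartile. The largest values in the other direction were those of ENSRNA049996936, ENSRNA049996257 and ENSRNA049997141, where ENSRNA049996257 had 0.67 and 0.64 (SE 0.20) and ENSRNA049997141 had 0.66 and 0.62 (SE 0.21) at 24 h and 1 h.

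Without replicate 1 at 1 h, the number of the 40 genes called rose to 7 at 24 h and to 5 at 1 h, against 35 and 18 among all genes tested, where the spread is estimated from all libraries in the fit. The counts at 24 h against t0 also depended on the scaling. With libraries scaled to the same upper quartile 8 of the 40 were called, all higher, beside 29 of all genes tested. The median log2FC of all genes then moved to 0.37 at 24 h and 0.39 at 1 h. With the same total it moved to -0.30 at 24 h and -0.20 at 1 h. With the same total over all genes but ENSRNA049996936 the shift was -0.12 at 24 h and -0.08 at 1 h. The shift was smaller with the dominant gene out of the total. This follows from the totals themselves, which at 24 h were 1.22 times those at t0 with it and 1.08 times without it.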

How the data were processed

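Small RNA libraries of 9 leaf samples, 3 for each condition, were analysed. According to the methods and the processing notes, the authors trimmed reads with Trim Galore 0.6.6, mapped them with STAR 2.5.3a to the Prunus persica genome, quantified Ensembl Plants genes with RSEM 1.3.0 and normalized pre_miRNA genes with DESeq2 1.26.0. What the authors deposited is thus a signal: counts after normalization, in which RSEM's division of reads between gene copies and the scaling by library are already fixed. Low values, up to 20 reads, were whole multiples of 1 step within 0.1 read for 100.0% of the 64 to 80 such values of a library, and so were 100.0% of the 124 to 142 values up to 800 reads. This gives the depth on pre_miRNA genes. No negative binomial test was run, but limma was also run with voom weights on the reads recovered in this way, an alternative chosen after seeing the data. Conditions and replicates came from the sample titles. The p-values measure the spread between these pooled samples.

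Shares are percentages of the normalized counts of a library over the pre_miRNA genes. For the 135 genes whose mean reached 5, log2(normalized count + 1) was fitted to all 9 libraries at once in limma 3.58.1 (R 4.3.3) with trended empirical Bayes moderation and BH adjustment. The added 1 understates changes of low genes. The limma fit was tested on simulated data, with planted changes larger than most seen here and 1 setting of the spread for all genes. This does not show its power for changes of the size reported. Python 3.11.15, numpy 2.4.6, pandas 2.3.3, scipy 1.17.1 and matplotlib 3.10.9 were used for the rest. The members, lists, tests and alternatives were chosen with earlier results of these data known. Genes were named by rule: the 7 highest at t0, the 4 with the smallest and the 4 with the largest CV, the 4 largest log2 fold changes in each direction at 24 h against 1 h and the 3 largest in each direction against t0, any with a 0, those in places 39 to 42 and the 3 most like the dominant gene. Alternatives were other added values, minimum means and scalings, no trend, only the libraries compared, a replicate block, other rankings and each library left out in turn.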

Additional observations from a re-analysis of the deposited data

How the results depend on the processing

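At 24 h against 1 h, 0 of the 40 genes were called in limma under every alternative run. Among all genes tested, 0 to 2 were called with 1 library left out and 0 otherwise. The 20 named genes gave 400 values over 20 alternatives there, 0 of them past an adjusted p of 0.05 (the smallest was 0.189) and 30 of them with the sign turned, in 10 of the genes. With the same total per library, the same total without ENSRNA049996936 and the same upper quartile, the log2FC became -0.099, -0.036 and -0.0095 for ENSRNA049997204, -0.091, -0.029 and -0.0016 for ENSRNA049996257 and -0.093, -0.030 and -0.0035 for ENSRNA049996390. With the first 2 of these scalings it became -0.071 and -0.0082 for ENSRNA049996520 and -0.082 and -0.020 for ENSRNA049997141. Leaving out 1 library at a time gave -0.021 to 0.059 for ENSRNA049997204, -0.24 to 0.15 for ENSRNA050003608, -0.046 to 0.17 for ENSRNA049996520, -0.21 to 0.20 for ENSRNA049997141, -0.19 to 0.15 for ENSRNA049996257, -0.31 to 4.10 for ENSRNA049996337, -0.039 to 0.069 for ENSRNA049996390, -0.53 to 0.30 for ENSRNA049996084, -3.23 to 0.090 for ENSRNA049996092 and -0.069 to 0.63 for ENSRNA049996936, whose sign turned without replicate 1 at 1 h. The difference in the share of ENSRNA049996936 ran from -0.932 to 6.17 percentage points.

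At 24 h against t0 limma called 1 of the 40 genes as reported, beside 19 of all genes tested. With 5 added before taking logs it was 2 beside 24, and with a minimum mean of 20 it was 3 beside 25. Voom weights on the recovered reads gave 2 beside 22. Scaling to the same total gave 2 beside 22, and 2 beside 21 with ENSRNA049996936 left out of the total. With the same upper quartile it was 8 beside 29, and with only the 6 libraries compared 6 beside 31. No trend gave 0 beside 12, and leaving out 1 library gave 0 to 7 beside 0 to 35. At 1 h against t0 it was 1 of the 40 beside 4 of all genes with the same upper quartile. With 1 library left out it was 0 to 5 beside 1 to 18. For the same total, that without ENSRNA049996936 and the same upper quartile in turn, the median log2FC of the 40 was -0.24, -0.058 and 0.46 at 24 h and -0.20, -0.085 and 0.40 at 1 h against t0, and ENSRNA049996936 had 0.66, 0.84 and 1.35 at 24 h. With voom weights the median at 24 h against t0 was 0.032. The median at 24 h against 1 h was -0.077 and -0.014 with the first 2. With 1 library left out the medians ran from 0.033 to 0.14 at 24 h against 1 h, from -0.039 to 0.073 at 24 h against t0 and from -0.079 to -0.030 at 1 h against t0, and ENSRNA049996936 had 0.81 to 1.17 at 24 h and 0.32 to 1.02 at 1 h against t0. The shares without ENSRNA049996936 in list and total were 83.2%, 83.4% and 82.3% at t0, 1 h and 24 h. The causes of these changes were not tested.

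The replicate numbers showed no clear pairing of the samples. The deviations of same-numbered libraries correlated at -0.41 to 0.17, and 3 of the 9 pairs were over 0.1. Of the libraries of another condition, the same-numbered one correlated best in 9 of 18 checks. Deviations from means of so few libraries cannot exclude a pairing. With the replicate block the calls at 24 h against t0 went from 1 to 0 among the 40 and from 19 to 10 among all genes.

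The list itself lost 1 gene when the ranking used all 9 libraries (ENSRNA049996092 for ENSRNA049996627), and kept 39 or 40 genes when 1 t0 library was left out. With 3 libraries in a condition, 1 control time and 4.73-fold different depths, and with reads of gene copies that cannot be told apart, the values describe these libraries. At 115519 reads, 3 reads are 8.53 normalized counts in the shallowest library.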
